A study of Mus musculus with 6 samples.

Results

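Aminoacyl-tRNA synthetases are the enzymes that join each amino acid to its transfer RNA, the step that makes translation follow the genetic code. Most animal cells use separate nuclear genes for the enzymes of the cytosol and of the mitochondrion, the latter serving only the few proteins that mitochondria translate themselves. In the cytosol several of the enzymes are held in a large multi-synthetase complex by scaffold proteins, and many cytosolic synthetase genes are known targets of ATF4, the transcription factor of the amino acid stress response. The 36 synthetase genes described here were taken by symbol from a table of 38124 genes: 20 cytosolic genes, which carry the older symbols without a final 1, and 16 mitochondrial genes, whose symbols end in 2. All 36 were found, and all 36 passed the expression filter. The mitochondrial aspartyl enzyme is not among them, and Gars and Kars, listed as cytosolic, are known to supply both compartments.

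The libraries came from wild-type C57BL macrophages grown in culture from bone marrow. One group was untreated (3 libraries). The other (3 libraries, called treated below) had been exposed for 24 hr to thymocytes made apoptotic with dexamethasone, a glucocorticoid that kills thymocytes, at a stated ratio of 1:40, and these cells were removed before RNA extraction. The series' design text calls each sample a biological replicate. It does not say whether dexamethasone itself reached the macrophages. All dead cells given were made apoptotic with this drug, so effects of the cells and of any drug carried over cannot be told apart.

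Depth was 19315132 to 25933208 mapped reads per library, and a synthetase gene had 98 to 5664 reads in a library, so the counting error at the thinnest was 10.1%. The spread between libraries of 1 group exceeded counting error (chi-square per gene and degree of freedom 1.67 to 16.7), most of all for treated replicates 1 and 3. All 8 macrophage markers, Lyz2, Cd68 and Csf1r among them, were above 1 RPKM in every library. Their levels differed between groups. On the means Fcgr1, Cd14 and Itgam were 7.09-fold, 3.96-fold and 3.61-fold lower in treated libraries, and Csf1r, Cd68 and Emr1 were lower by 32.9%, 10.2% and 8.60%. Mertk and Lyz2 were 4.33-fold and 1.45-fold higher. Of 15 thymocyte markers, 14 were under 1 RPKM in all 6 libraries and 5 (Cd3e, Cd8b1, Rag2, Ptcra and Themis) were at 0 throughout. Their summed level, nearly all of it Cd4, was 4.33 to 4.67 RPKM untreated and 2.13 to 2.54 RPKM treated. The 6 neutrophil markers summed to 0.203 to 0.386 RPKM untreated and 3.69 to 4.19 RPKM treated, with Ngp the largest and Ly6g at 0, and their part in the results was not tested. All values below are from bulk RNA, in which fewer cells of a type and less RNA per cell cannot be told apart.

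Cytosolic synthetase mRNAs were more abundant than mitochondrial ones per length. The median level over all libraries was 19.6 RPKM for the 20 cytosolic genes, in a range of 3.09 to 81.6 RPKM, and 3.70 RPKM for the 16 mitochondrial genes, in a range of 1.22 to 9.28 RPKM. Nars, the asparaginyl enzyme, was highest at 79.9, 85.1 and 79.6 RPKM in untreated and 83.0, 82.0 and 80.0 RPKM in treated libraries. The groups overlapped, and Nars alone made up 19.1% ± 0.188 of the summed cytosolic RPKM before and 20.2% ± 0.462 after exposure (SD, n = 3). Below Nars came Dars at 31.6 RPKM (mean of 6 libraries), and then Hars, Gars, Farsb, Rars, Eprs, Sars, Kars and Tars, whose means lay between 26.7 and 20.9 RPKM with library ranges that overlap from neighbour to neighbour. The least abundant were Ears2 at 1.22, Wars2 at 1.26 and Nars2 at 1.52 RPKM, again with ranges that overlap.

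**Figure D1:**
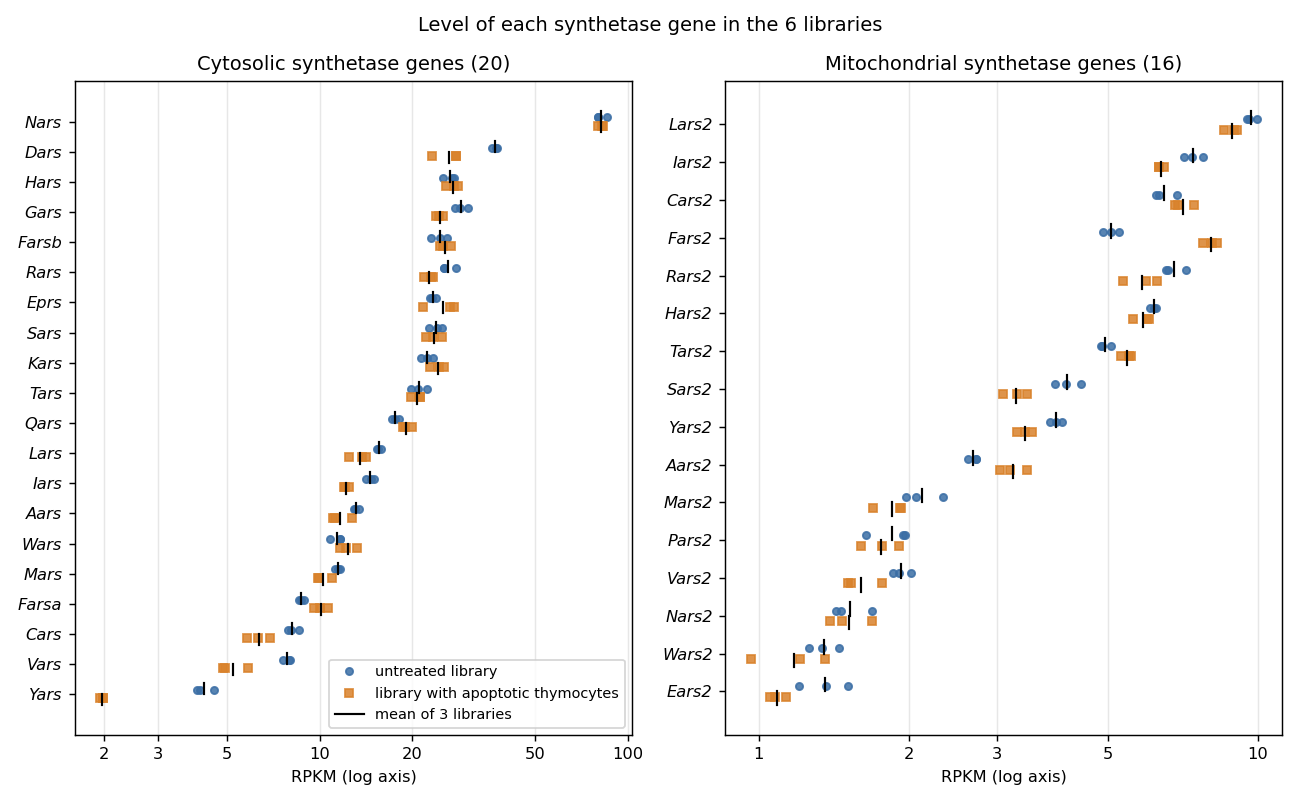
RPKM (log axis) of the 20 cytosolic and 16 mitochondrial synthetase genes, ordered by mean level, with a blue circle for each of 3 untreated libraries, an orange square for each of 3 treated libraries and a black bar at each group mean. The groups do not overlap in 24 of the 36 genes, with the widest gaps at Yars, Vars and Dars (lower when treated) and Fars2 (higher).

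Changes after exposure were small. Of the 36 synthetase genes 16 fell, 5 rose and 15 did not pass the test (limma, adjusted p under 0.05), a share of 58.3% called beside 64.8% of all 10173 tested genes. The falls were 44.4% of the members beside 46.0% of all tested genes, and the rises 13.9% beside 18.8%, so the shares were near the background. As a description of size, 0 of 36 had a log2 change beyond 1 in either direction, beside 8.13% of tested genes, and 30 (83.3%) lay within 0.25 of 0, beside 52.0%. Past the threshold with a log2 change of at least 0.5 were 3 members (Yars, Vars and Fars2), beside 23.0% of tested genes. Group ranges did not overlap in 24 of the 36, beside 69.6% of tested genes.

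Among cytosolic genes 10 of 20 fell, 2 rose and 8 did not pass, with a median log2 change of -0.082. Among mitochondrial genes 6 of 16 fell, 3 rose and 7 did not pass, with a median of -0.12. The median of all tested genes was -0.13, so both medians lay close to it. Summed over the cytosolic genes, RPKM was 420, 441 and 420 in untreated and 400, 408 and 403 in treated libraries. The sums of the mitochondrial genes were 66.3, 68.5 and 67.7 in untreated and 66.2, 66.9 and 66.4 in treated libraries. With the deposited scaling the cytosolic sum was below the untreated range in all 3 treated libraries, with a ratio of the means of 0.945. The mitochondrial sums overlapped. Both statements depend on scaling, and the sums were not recomputed under another one. Median-of-ratios scaling divides by 1.06, 1.07 and 1.06 in untreated and by 0.950, 0.946 and 0.932 in treated libraries, which raises treated sums against untreated ones. A factor common to a library cancels in the ratio of the cytosolic to the mitochondrial sum. That ratio was 6.34, 6.44 and 6.21 in untreated and 6.04, 6.10 and 6.07 in treated libraries, without overlap. The difference in this ratio was not tested.

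The direction of the small changes depended on scaling. Median-of-ratios scaling raised the median tested gene by 0.15 on the log2 scale, and under it 3 cytosolic genes were lower and 9 higher, while 0 mitochondrial genes were lower and 4 higher, beside 27.9% of tested genes lower, 31.8% higher and 59.7% either. The 3 lower genes were Dars, Vars and Yars, and all 5 genes called higher with the deposited scaling were called higher again. Of the 21 calls, 5 (Yars, Vars, Dars, Farsa and Fars2) held in all 11 alternative settings. A further 7 (Cars, Gars, Iars, Lars, Rars, Iars2 and Sars2) held whichever library was left out and were lost under both rescalings. The other 9 were lost when at least 1 library was left out: Aars2 without untreated replicate 3 (adjusted p = 0.0563), Yars2 in 4 of the 6 such fits, all but those without untreated or treated replicate 3, and 7 more in 5 of the 6. Of these, Aars, Mars, Tars2 and Vars2 kept the call only without treated replicate 3, Qars and Rars2 only without treated replicate 1 and Ears2 only without untreated replicate 3. The count of 6 lower mitochondrial genes became 2 without untreated replicate 1, untreated replicate 2 or treated replicate 2, and 3 without treated replicate 1. The 2 higher cytosolic genes became 4 without treated replicate 1 and 1 without treated replicate 2 or any 1 of the untreated replicates, and the 3 higher mitochondrial genes became 1 without untreated replicate 3.

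**Figure D2:**
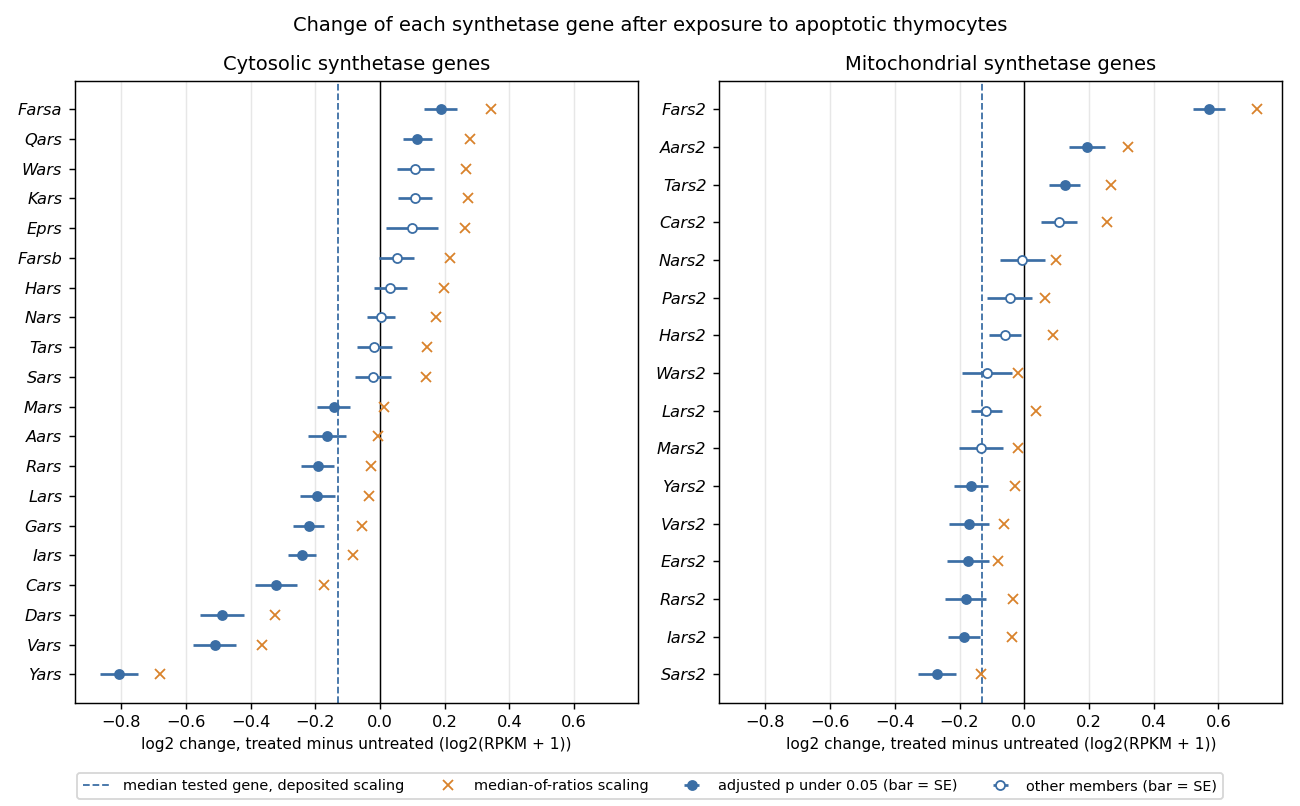
Log2 change (treated minus untreated, log2(RPKM + 1)) of each synthetase gene with its SE as a bar, filled where the adjusted p is under 0.05, and as an orange cross under median-of-ratios scaling. The dashed line is the median tested gene at -0.13, around which most members sit, with Yars at -0.81 and Fars2 at 0.57 at the ends.

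The clearest fall was in Yars, the cytosolic tyrosyl enzyme, a fragment of which is known to act as a cytokine (ENSMUSG00000028811, chromosome 4, 129189760 to 129219607). Yars measured 3.999, 4.53 and 4.09 RPKM in untreated and 1.95, 1.99 and 1.99 RPKM in treated libraries. The groups were far apart, and the treated libraries were nearly equal. The mean fell 2.13-fold, from 4.21 ± 0.285 to 1.98 ± 0.0253 (SD, n = 3; log2 change -0.81, SE 0.058, limma adjusted p = 2.34e-06). Behind these values were 459, 644 and 561 reads in untreated and 300, 269 and 279 reads in treated libraries. Under median-of-ratios scaling the log2 change was -0.68, and with a pseudocount of 0.1 RPKM it was -1.05. Exons of Yars overlap 30 bases of C77080, which averaged 60.7 RPKM, on the opposite strand.

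Vars, the cytosolic valyl enzyme, which is known to bind elongation factor 1 (ENSMUSG00000007029, chromosome 17, 35000987 to 35016322), measured 7.64, 7.95 and 7.995 RPKM in untreated and 4.94, 4.88 and 5.87 RPKM in treated libraries. All treated libraries were lower, with replicate 3 the nearest to the untreated ones. The mean fell 1.503-fold, from 7.86 ± 0.193 to 5.23 ± 0.556 (log2 change -0.51, SE 0.067, limma adjusted p = 0.000147), and the log2 change under median-of-ratios scaling was -0.36.

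The genes of the multi-synthetase complex, which holds the enzymes for aspartate, glutamate and proline, isoleucine, lysine, leucine, methionine, glutamine and arginine, mostly changed little. Of its 8 enzyme genes 5 fell (Dars, Iars, Lars, Mars and Rars), 1 rose (Qars) and 2 did not pass, with a median log2 change of -0.17, beside 46.0% of tested genes lower and 18.8% higher. Under median-of-ratios scaling 1 of the 8 was lower (Dars), 3 were higher and 4 were not called. With that scaling 27.9% of tested genes were lower and 31.8% higher. Dars, the aspartyl enzyme (ENSMUSG00000026356, chromosome 1, 128363708 to 128417416), changed the most and measured 36.2, 37.5 and 37.3 RPKM in untreated and 27.7, 27.7 and 23.1 RPKM in treated libraries. The groups did not overlap, and treated replicate 3 was the lowest. The mean fell 1.41-fold (log2 change -0.49, SE 0.068, limma adjusted p = 0.000231), with log2 changes of -0.40 without treated replicate 3 and -0.32 under median-of-ratios scaling.

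Iars, the isoleucyl enzyme, measured 14.1, 14.7 and 14.98 RPKM in untreated and 12.4, 12.1 and 12.0 RPKM in treated libraries, with no overlap (log2 change -0.24, limma adjusted p = 0.0012). Lars, Rars and Mars, for leucine, arginine and methionine, fell by 13.26%, 12.997% and 10.2% of the untreated mean. Qars, the glutaminyl enzyme, rose from 17.6 ± 0.450 to 19.1 ± 0.676 RPKM with an adjusted p of 0.0494 (limma), close to the threshold. Eprs, a single protein that charges both glutamate and proline tRNAs, measured 23.1, 23.9 and 22.9 RPKM in untreated and 27.3, 26.5 and 21.6 RPKM in treated libraries. Treated replicates 1 and 2 were above all untreated libraries and replicate 3 was below them. Eprs did not pass (log2 change 0.099, adjusted p = 0.297) and passed as higher without treated replicate 3 (log2 change 0.20, limma adjusted p = 0.0026). Kars, the lysyl enzyme, was 22.3 ± 0.922 and 24.1 ± 1.31 RPKM (adjusted p = 0.102; 0.0252 without treated replicate 1). Of the 3 scaffold genes of the complex, Aimp1 fell from 26.9 ± 1.67 to 23.4 ± 0.789 RPKM (limma adjusted p = 0.0118) and Eef1e1 from 18.03 ± 1.43 to 15.3 ± 0.377 RPKM (limma adjusted p = 0.0103), and Aimp2 did not pass. Among all tested genes 46.0% fell. Under median-of-ratios scaling 0 of these 3 scaffold genes passed, beside 59.7% of tested genes called in either direction.

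Of the 12 cytosolic genes outside the complex, 5 fell (Yars, Vars, Cars, Gars and Aars), 1 rose (Farsa) and 6 did not pass, with a median log2 change of -0.020, beside the same background of 46.0% lower and 18.8% higher. Under median-of-ratios scaling 2 of the 12 were lower (Vars and Yars), 6 higher and 4 not called. The background of that scaling was 27.9% of tested genes lower and 31.8% higher. Cars, the cysteinyl enzyme (chromosome 7, 143557230 to 143600090), measured 7.88, 8.56 and 8.06 RPKM in untreated and 5.80, 6.34 and 6.89 RPKM in treated libraries. The groups did not overlap (log2 change -0.32, SE 0.064, limma adjusted p = 0.00196), and under median-of-ratios scaling the adjusted p was 0.0502. Gars, the glycyl enzyme (chromosome 6, 55038001 to 55079504), measured 28.5, 30.2 and 27.5 RPKM in untreated and 23.8, 24.4 and 25.2 RPKM in treated libraries, a fall of 14.7% with no overlap. Aars, the alanyl enzyme (chromosome 8, 111033144 to 111057664), measured 13.5, 13.1 and 12.9 RPKM in untreated and 11.03, 11.2 and 12.7 RPKM in treated libraries. Treated replicate 3 was just under the untreated range (limma adjusted p = 0.0337). Exons of Aars overlap 1326 bases of Exosc6 on the same strand, so its value can hold reads of both genes.

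Farsa, the alpha chain of the cytosolic phenylalanyl enzyme (chromosome 8, 84856989 to 84869257), measured 8.68, 8.56 and 8.90 RPKM in untreated and 9.58, 10.01 and 10.6 RPKM in treated libraries. All treated libraries were higher, by 15.6% on the means (log2 change 0.19, limma adjusted p = 0.00999). Farsb, the beta chain of the same enzyme, was 24.5 ± 1.45 and 25.4 ± 1.06 RPKM and did not pass. The tryptophanyl enzyme gene Wars, known as a gene induced by interferon gamma, was 11.4 ± 0.474 and 12.3 ± 0.815 RPKM and did not pass (adjusted p = 0.122; 0.0440 without treated replicate 1). Nars, Hars, Sars and Tars, for asparagine, histidine, serine and threonine, had log2 changes of 0.0033, 0.032, -0.022 and -0.017 with adjusted p of 0.605 to 0.952.

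Among mitochondrial genes Fars2, the mitochondrial phenylalanyl enzyme, which acts as a single chain (ENSMUSG00000021420, chromosome 13, 36117411 to 36537592), rose the most. Fars2 measured 4.90, 5.28 and 5.08 RPKM in untreated and 7.77, 8.26 and 8.09 RPKM in treated libraries. The groups were far apart. The mean rose 1.58-fold, from 5.08 ± 0.189 to 8.04 ± 0.252 (log2 change 0.57, SE 0.050, limma adjusted p = 9.42e-06), and the log2 change under median-of-ratios scaling was 0.72. Behind these values were 201, 268 and 249 reads in untreated and 428, 400 and 405 reads in treated libraries. Exons of Fars2 overlap 115 bases of Lyrm4 and 501 bases of Nrn1 on the opposite strand. Lyrm4 averaged 8.70 RPKM over all libraries and Nrn1 averaged 0.0566 RPKM, and whether the counting used strand is not given.

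The other mitochondrial genes that rose did so by less. Aars2, the mitochondrial alanyl enzyme (chromosome 17, 45506841 to 45520842), measured 2.72, 2.72 and 2.63 RPKM in untreated and 3.19, 3.04 and 3.45 RPKM in treated libraries, with no overlap (log2 change 0.19, limma adjusted p = 0.0141). Tars2, for threonine, rose from 4.93 ± 0.121 to 5.47 ± 0.130 RPKM (limma adjusted p = 0.0456). Cars2, for cysteine, was 6.49 ± 0.340 and 7.06 ± 0.340 RPKM and did not pass.

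The fall with the smallest adjusted p among mitochondrial genes was in Sars2, the seryl enzyme (chromosome 7, 28741968 to 28753879), which measured 4.42, 4.12 and 3.93 RPKM in untreated and 3.29, 3.45 and 3.09 RPKM in treated libraries. The groups did not overlap (log2 change -0.27, limma adjusted p = 0.0035). Iars2, for isoleucine, fell from 7.41 ± 0.324 to 6.39 ± 0.0811 RPKM (limma adjusted p = 0.00922), and 2034 bases of its exons overlap Rab3gap2 on the opposite strand. Yars2, Rars2, Vars2 and Ears2, for tyrosine, arginine, valine and glutamate, fell by 13.5%, 13.4%, 16.8% and 19.95% of the untreated mean. Lars2, for leucine, was 9.70 ± 0.233 and 8.86 ± 0.283 RPKM and just missed the threshold (adjusted p = 0.0524; 0.0322 without treated replicate 3). Hars2, Mars2, Nars2, Pars2 and Wars2 did not pass, with log2 changes from -0.13 to -0.0061.

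For 17 combinations of a cytosolic gene with the mitochondrial gene for the same amino acid, the log2 ratio of (RPKM + 1) was compared between groups, so that a factor common to a library nearly cancels. With 3 libraries against 3 an exact permutation test cannot go below p = 0.10, and the smallest p adjusted over the 17 was 0.189, so 0 combinations could pass. The ranges of the groups did not overlap in 9 of 17, with the cytosolic share lower in treated libraries in 7 and higher in 2, and Fars2 and Eprs each stand in 2 of the 17. With median-of-ratios scaling 9 of 17 did not overlap. For single genes the background share without overlap was 69.6%.

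The order of the paired enzymes turned in tyrosine and cysteine. Yars was above Yars2 in each untreated library (Yars2: 3.95, 4.05 and 3.84 RPKM) and below Yars2 in each treated library (Yars2: 3.29, 3.42 and 3.53 RPKM), and the mean ratio of RPKM went from 1.07 to 0.579. In untreated replicate 1 the gap (3.999 against 3.95 RPKM) was within counting error, which was 6.45% for the 240 reads of Yars2. The order of 2 genes in RPKM also depends on the gene lengths used, and the gene models are not given. The log2 ratio of Yars to Yars2 changed by -0.64 (exact permutation p = 0.10). Cars was likewise above Cars2 in each untreated library (Cars2: 6.34, 6.25 and 6.88 RPKM) and below it in each treated library (Cars2: 6.91, 6.82 and 7.45 RPKM), with the mean ratio at 1.26 and 0.898. Cars2 had 331, 287 and 324 reads in treated libraries, and its counting error was 6.65% at 226 reads. The gaps in treated replicates 2 and 3 (6.34 against 6.82 and 6.89 against 7.45 RPKM) were near that size. Exons of Cars2 overlap 422 bases of Naxd on the opposite strand. In the other 15 combinations the cytosolic gene was the higher in all 6 libraries.

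The largest of the other shifts were in phenylalanine, alanine and valine. The log2 ratio of Farsb to Fars2 went from 2.07 ± 0.0377 to 1.55 ± 0.0252 (SD, n = 3) and that of Farsa to Fars2 from 0.68 ± 0.0591 to 0.29 ± 0.0556. Fars2 rose, Farsa rose by less and Farsb did not pass. In alanine Aars was called lower and Aars2 higher with the deposited scaling only: under median-of-ratios scaling the log2 change of Aars was -0.0054 (adjusted p = 0.947) and Aars2 was still called higher. The log2 ratio of Aars to Aars2 went from 1.94 ± 0.0198 to 1.58 ± 0.0540. In valine Vars fell by more than Vars2, which was not called under median-of-ratios scaling, and the log2 ratio went from 1.60 ± 0.0227 to 1.26 ± 0.0488. The combinations that shifted toward the cytosolic gene without overlap were Eprs with Ears2 (log2 ratio 3.37 to 3.64) and Sars with Sars2 (2.27 to 2.51).

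**Figure D3:**
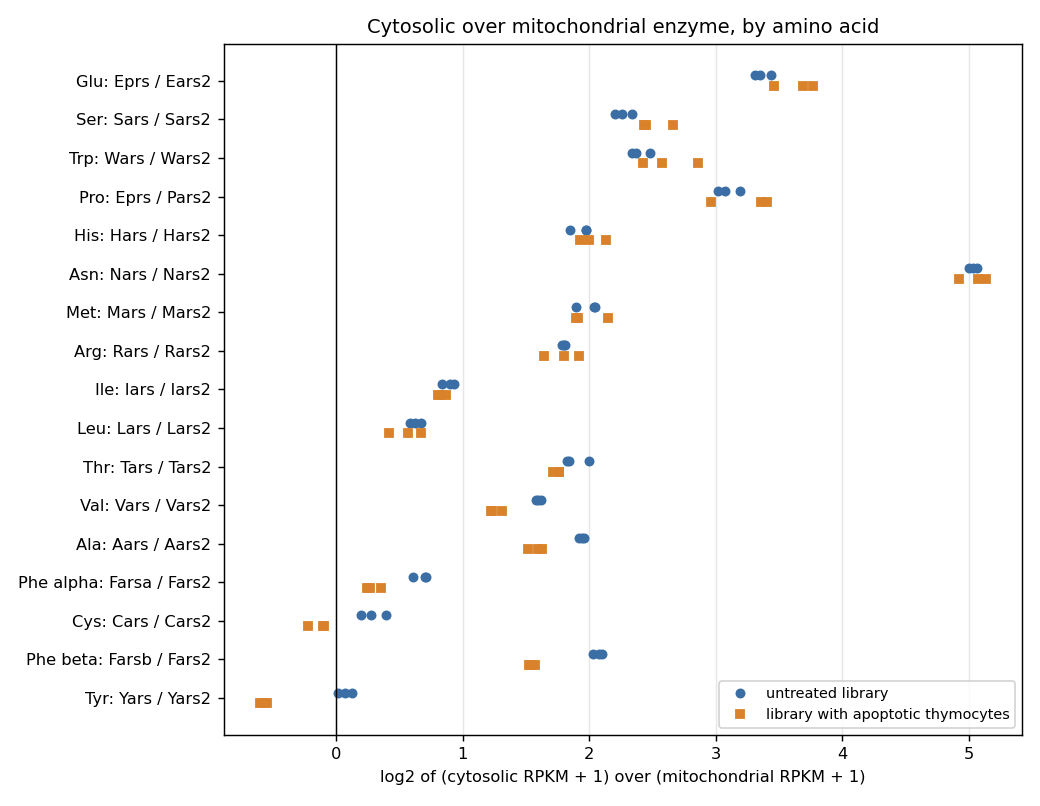
Log2 of (cytosolic RPKM + 1) over (mitochondrial RPKM + 1) for 17 combinations, with a blue circle for each of 3 untreated libraries and an orange square for each of 3 treated libraries. The vertical line marks equal levels, which Yars over Yars2 and Cars over Cars2 cross from right to left in treated libraries.

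Synthetases fall into 2 structural classes, class I with a Rossmann-fold catalytic core and class II with an antiparallel beta-sheet core, and Eprs holds an enzyme of each. Of 18 class I genes 12 fell and 1 rose, with a median log2 change of -0.17. Of 17 class II genes 4 fell and 4 rose, with a median of -0.0061. Among all tested genes 46.0% fell and 18.8% rose, so the share of falls was above the background in class I (66.7%) and below it in class II (23.5%). Under median-of-ratios scaling 2 class I genes were lower and 3 higher, and 1 class II gene was lower and 9 higher, beside 27.9% lower and 31.8% higher of tested genes. The difference between the classes was not tested.

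The charged tRNAs are carried to the ribosome by elongation factors. The counts of this paragraph stand beside 46.0% of all tested genes lower and 18.8% higher. Under median-of-ratios scaling these shares were 27.9% and 31.8%. Of 5 cytosolic elongation factor genes 4 fell and 1 (Eef1d) did not pass, with a median log2 change of -0.33. Eef2, which drives translocation of the ribosome, went from 524 ± 11.7 to 401 ± 30.7 RPKM (limma adjusted p = 0.000432). Eef1a1, which brings charged tRNA to the ribosome and has many processed pseudogenes, went from 2311 ± 71.7 to 1838 ± 94.4 RPKM. Under median-of-ratios scaling 2 of the 5 passed as lower. Of 4 mitochondrial elongation factor genes (Tufm, Tsfm, Gfm1 and Gfm2) 0 passed with the deposited scaling, while median-of-ratios scaling called 3 of them higher. Of 4 genes that complete charging in mitochondria (Qrsl1, Gatc and Pet112l, the glutamine amidotransferase subunits, and Mtfmt, which formylates the initiator) 0 passed, and with median-of-ratios scaling 1 was higher. Of 6 genes of editing, selenocysteine charging or related function 4 fell, the most Sepsecs, the last enzyme of selenocysteinyl-tRNA synthesis, from 3.75 ± 0.0953 to 2.69 ± 0.314 RPKM (limma adjusted p = 0.00144). Under median-of-ratios scaling 1 of the 6 was lower (Sepsecs) and 1 higher (Prorsd1).

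Of 19 amino acid response genes 17 were tested, of which 10 fell and 7 rose, beside 46.0% and 18.8% of all tested genes. Under median-of-ratios scaling 8 were lower, 7 higher and 2 not called, beside 27.9% of tested genes lower, 31.8% higher and 59.7% either. Atf4 fell from 94.6 ± 3.59 to 67.8 ± 1.67 RPKM (log2 change -0.47, limma adjusted p = 1.55e-05) and Asns, the asparagine synthetase and a classic ATF4 target, fell 3.02-fold from 8.79 ± 0.702 to 2.91 ± 0.0896 RPKM. Log2 changes of the 17 ran from -1.59 (Mthfd2, a mitochondrial folate enzyme) to 5.20 (Ddit4, a stress-induced inhibitor of mTORC1). Besides Ddit4, the 7 that rose were Slc7a11 (log2 change 3.81), Atf5 (2.34), Eif4ebp1 (0.84), Cebpb (0.82), Slc3a2 (0.72) and Sesn2 (0.30). The list thus moved in both directions.

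Because ATF4 and Myc are known regulators of cytosolic synthetase genes, promoter sequences were searched for the core of the C/EBP-ATF response element (CARE), TGATGNAA, and for the E-box CACGTG, on both strands. RefSeq windows of 300 bases, from 250 before to 50 after the start site (GRCm38.p6), were used for 26 of the 36 genes, 12 cytosolic and 14 mitochondrial. The CARE core was in 4 of 12 cytosolic and 0 of 14 mitochondrial genes, and in 4.51% of the 27025 genes with a window. The E-box was in 3 of 12 cytosolic genes (Farsb, Iars and Tars) and 1 of 14 mitochondrial genes (Ears2), and in 8.09% of all genes with a window. No E-box match overlapped a CARE match. The CARE matches are shown because they lay in cytosolic windows only among these 26 genes. Capitals mark the CARE core, or its reverse complement, with 10 bases on each side, 5′ to 3′ on the strand of the gene.
Gars, chr6:55037961-55037988, plus strand: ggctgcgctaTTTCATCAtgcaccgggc
Iars, chr13:49682127-49682154, plus strand: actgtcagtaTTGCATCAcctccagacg
Tars, chr15:11399656-11399683, minus strand: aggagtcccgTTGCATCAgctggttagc
Yars, chr4:129189896-129189923, plus strand: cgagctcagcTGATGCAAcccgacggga

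In Iars, Tars and Yars the match had C in the open position of the core, read on the strand that spells TGATGNAA as TGATGCAA or its reverse complement TTGCATCA, and the match of Gars was TTTCATCA. For Gars and Tars, whose matches lie close before the start site, the 250 bases before it give the wider context, with the CARE core in capitals.
Gars, chr6:55037751-55038000, plus strand: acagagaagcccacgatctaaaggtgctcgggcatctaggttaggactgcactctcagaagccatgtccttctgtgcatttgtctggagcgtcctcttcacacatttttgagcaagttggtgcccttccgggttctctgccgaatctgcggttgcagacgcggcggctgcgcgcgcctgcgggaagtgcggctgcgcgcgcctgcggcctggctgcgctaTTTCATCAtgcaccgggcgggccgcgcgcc
Tars, chr15:11399659-11399908, minus strand: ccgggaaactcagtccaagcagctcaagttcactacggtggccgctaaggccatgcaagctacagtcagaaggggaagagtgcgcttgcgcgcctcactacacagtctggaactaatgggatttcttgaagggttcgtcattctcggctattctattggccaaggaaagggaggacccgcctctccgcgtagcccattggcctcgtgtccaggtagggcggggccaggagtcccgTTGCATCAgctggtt

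Set beside expression, 3 of the 4 cytosolic genes with a CARE core fell (Yars, Iars and Gars, with log2 changes of -0.81, -0.24 and -0.22) and Tars did not pass (log2 change -0.017). Of the 8 cytosolic genes with a window and no match, 2 fell (Dars and Mars), 2 rose (Farsa and Qars) and 4 did not pass. Of all tested genes 46.0% fell, and so few genes allow no contrast by motif. The median log2 change was -0.23 with a match and 0.075 without, beside -0.13 for the median tested gene. These medians leave out the cytosolic genes without a window here. Among those were Vars (log2 change -0.51), Cars (-0.32), Lars (-0.19), Rars (-0.19), Nars (0.0033), Hars (0.032) and Wars (0.11), so the medians depend on which genes had a window. Under median-of-ratios scaling Yars alone of the 4 was called lower, and Tars was called higher, beside 27.9% of tested genes lower and 31.8% higher. A match describes the letters in the window and no binding was measured.

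**Figure D4:**
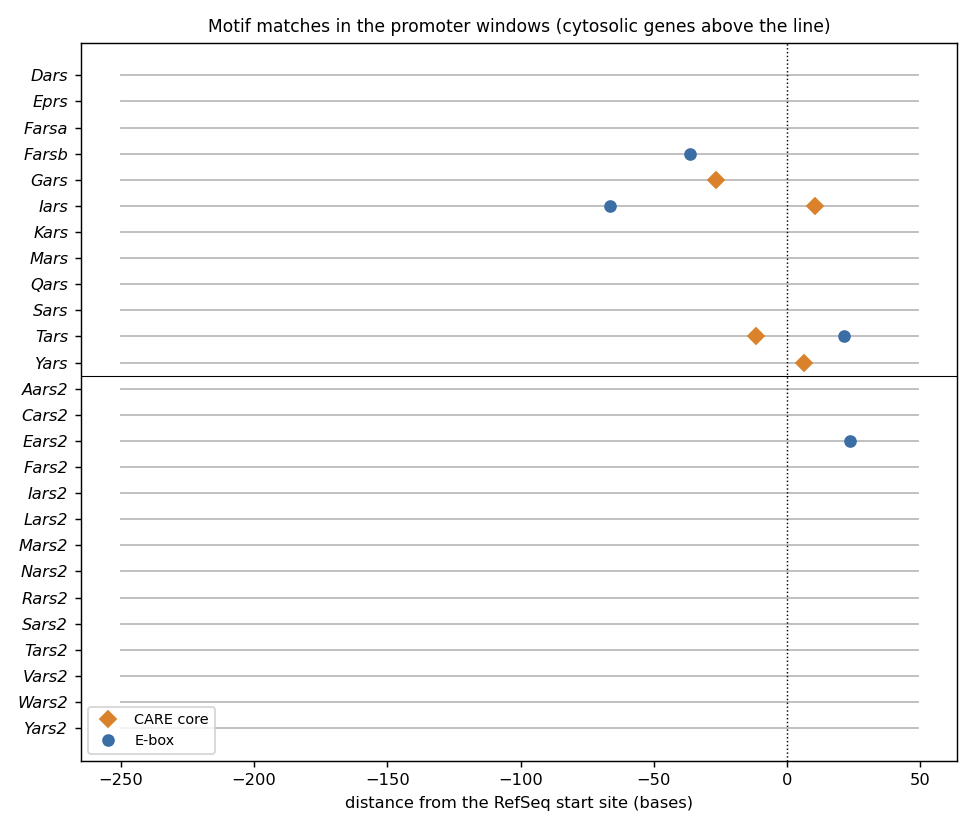
Position of each match of the CARE core (orange diamonds) and of the E-box (blue circles) in the windows of 26 synthetase genes, in bases from the RefSeq start site (dotted line), with cytosolic genes above the horizontal line and mitochondrial genes below it. The 4 CARE matches lie in Gars, Iars, Tars and Yars.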

How the data were processed

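The authors deposited 1 table of RPKM (read counts scaled to gene length and to mapped reads), per the file headers, with 1 column for each of the 6 libraries. Libraries were strand-specific and poly(A)-selected, and the genome build was GRCm38 (mm10), as the labels' protocols and the submitters' processing notes state. Aligner, counter, gene models and the use of strand are not given in the sources used here.

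A gene entered the test if 3 or more libraries reached 1 RPKM. Group means of log2(RPKM + 1) were compared by limma 3.58.1 under R 4.3.3, with the prior variance following mean level and no covariates. Benjamini-Hochberg adjustment ran over all tested genes, and a gene passed at an adjusted p under 0.05. The fit was tested on simulated data with the same added spread for every gene and library, unlike these data, so that test does not vouch for the calls. Changes are treated minus untreated on that log2 scale, which understates changes of low genes. Ratios of the cytosolic to the mitochondrial enzyme were compared with exact two-sided permutation tests (SciPy 1.17.1). Library depth and member reads were recovered as the whole numbers behind the RPKM values, within 0.001 reads, and intervals from reads cover counting error only. Alternatives were another pseudocount, no filter, median-of-ratios and upper-quartile scaling, a replicate block and leaving out each library. Promoter windows came from RefSeq (GRCm38.p6), and that of 1 member is not reported here. All members are accounted for; those described by library were members past the threshold with an absolute log2 change of at least 0.5, members of opposed called pairs and members whose call moved with the setting, and further ones were chosen after their values were seen. Members, lists and motifs were chosen with earlier results of these data known.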

Additional observations from a re-analysis of the deposited data

How the results depend on the processing

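Members with few reads and changes near that of the median gene limit these results: at 98 reads a single library carries a counting error of 10.1%. With median-of-ratios and upper-quartile scaling, all tested genes higher numbered 3235 and 3280 (1915 as deposited) and lower 2836 and 2814 (4679 as deposited). Cytosolic genes higher numbered 9 under either scaling and lower 3 under either, and mitochondrial genes lower 0 under either. Without a filter 1 cytosolic gene was higher and 3 mitochondrial genes lower. Leaving out 1 library gave 1 to 4 cytosolic genes higher, 8 to 10 lower, 1 to 3 mitochondrial genes higher and 2 to 5 lower, and 9 to 13 of the 17 ratios without overlap. A pseudocount of 0.1 changed the call of 0 members. Deviations of same-numbered libraries from their group means correlated at 0.20, -0.031 and -0.16, and those of other-numbered libraries at -0.32 to 0.33. Deviations from a shared group mean are tied to each other, so these values cannot decide whether replicate numbers pair the libraries. With the replicate block 1 cytosolic gene was higher, 1904 genes in all were higher and 4627 lower, and 4 members (Ears2, Mars, Qars and Tars2) lost their call; this is not read as a weaker effect. The sign of 7 members turned positive under median-of-ratios and upper-quartile scaling: Mars (0.013 and 0.016), Sars (0.14 and 0.15), Tars (0.15 and 0.15), Hars2 (0.087 and 0.090), Lars2 (0.037 and 0.040), Nars2 (0.097 and 0.099) and Pars2 (0.065 and 0.067). Leaving out 1 library turned the sign of 5 uncalled members, with ranges of -0.0021 to 0.069 for Hars, -0.014 to 0.034 for Nars, -0.065 to 0.017 for Sars, -0.056 to 0.027 for Tars and -0.054 to 0.040 for Nars2. The factors of both rescalings were estimated from these data and raised treated against untreated libraries. Other causes of the turned signs were not tested. The ratios of paired enzymes were not recomputed without the filter, which does not enter them, or with the block.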
